A study of Mus musculus with 9 samples.

Results

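The p53 transcription factor, its regulators and known target genes were followed in mouse neural stem cells in which Phf2 had been lowered by short hairpin RNA. Members were the genes whose Ensembl identifiers carry 32 listed mouse symbols, and all 32 were found among the 54232 genes of the count table and passed the expression filter. They were grouped by function into p53 itself (Trp53), 7 feedback genes and regulators, 11 apoptosis genes, 5 genes of cell cycle arrest, 4 repair genes and 4 genes of metabolism.

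RNA-seq was performed on primary mouse embryonic neural stem cells, labelled as tissue of the subventricular zone and grown on laminin-coated dishes in proliferation medium with FGF and EGF. Both hairpins sh900 and sh902 target Phf2, which encodes a histone demethylase of the KDM7 family. The shNT cells received a non-targeting hairpin, and RNA of every culture was harvested on day 3 after the hairpin was given. There were 3 libraries in each of the 3 groups, of which 1 was undated, 1 was dated 30 August and 1 was dated 3 September. The hairpin sequences, the vector, the genetic background and what the dates mark are not stated in the labels. They leave unsaid whether the libraries of a group came from different animals or platings, and every p below therefore refers to the variation among the libraries, part of which may be technical.

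p53 is held at a low level in unstressed cells by Mdm2, a ubiquitin ligase that marks it for degradation, and by the related inhibitor Mdm4. DNA damage and other stresses release it, largely through changes to the protein rather than to its transcript. It then binds DNA as a tetramer and activates genes that arrest the cell cycle, repair DNA, change metabolism or start apoptosis, and it activates Mdm2, which closes a feedback loop. In neural stem cells p53 is known as a brake on self-renewal and proliferation.

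A p53 tetramer reads a site made of a pair of half-sites of 10 bases each. The RefSeq promoter windows on GRCm38.p6, from 250 bases before to 50 bases after each start, were available for 25 of the 32 members. The p53 half-site, which reads the same on both strands, was found in 10 of these 25 genes (40%), against 2582 of 27025 genes with a window (9.55%). A gene could have several starts, with a mean of 1.44 windows per member and 1.22 per gene overall. A full site of 20 bases, in which the half-sites touch and at most 1 base departs from the motif outside the fixed C and G, stood in 2 members, Ccng1 and Rps27l (8.0%), against 22 of 27025 genes (0.081%). A match is a description of these letters and not evidence that p53 binds there. The windows of 3 members whose levels were higher in the hairpin libraries and of Sesn1, whose levels were lower, are shown with the match in capitals. Each is on its gene's strand, 5′ to 3′.
Ccng1, chr11:40755422-40755521, minus strand, full site 195 to 176 bases before the start: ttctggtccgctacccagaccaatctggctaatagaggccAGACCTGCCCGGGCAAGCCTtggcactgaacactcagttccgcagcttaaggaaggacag
Mdm2, chr10:117710895-117710984, minus strand, half-site 186 to 177 bases before the start: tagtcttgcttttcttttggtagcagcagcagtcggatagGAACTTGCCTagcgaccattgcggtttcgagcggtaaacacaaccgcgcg
Bax, chr7:45467050-45467139, minus strand, half-site 201 to 192 bases before the start: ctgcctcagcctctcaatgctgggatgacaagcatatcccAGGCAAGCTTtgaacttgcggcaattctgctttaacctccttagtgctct
Sesn1, chr10:41887226-41887315, plus strand, half-site 173 to 164 bases before the start: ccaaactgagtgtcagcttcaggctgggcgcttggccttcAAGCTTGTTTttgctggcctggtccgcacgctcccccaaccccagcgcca
The Ccng1, Mdm2 and Bax stretches lie upstream of their GENCODE genes, and the Sesn1 stretch lies inside its gene, upstream of an internal RefSeq start. The full site of Rps27l, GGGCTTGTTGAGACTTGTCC, stood 117 to 98 bases before its RefSeq start, and half-sites were also found near starts of Trp53 (GGACTTGCCC) and Ei24 (GGGCATGCCC).

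Library totals ran from 23212472 to 32392496 counts, and 17602 genes passed the filter. Levels are given in CPM, the counts scaled to the library's TMM-adjusted total, and the 3 values of a group stand in the order undated, 30 August, 3 September. Phf2 (ENSMUSG00000038025, chromosome 13) stood at 19.8, 14.9 and 25.5 CPM with sh900 and at 25.0, 16.96 and 28.1 CPM with sh902, against 56.3, 52.8 and 48.7 CPM with shNT. All 6 hairpin libraries lay below all 3 shNT libraries (exact permutation test on log2 CPM, two-sided, p = 0.0119, the smallest that 84 splits allow). The 8 neural stem cell markers summed to between 7551 and 13190 CPM with sh900, 6374 and 9640 CPM with sh902, and 5707 and 6919 CPM with shNT. These markers went both ways in the fit with the date label, with Nes (log2 fold change 1.66) and Vim (0.95) called higher, Pax6 (-0.76) called lower and a median of -0.14 over the 8. In that fit 6.08% of all genes were called higher and 5.59% lower. Transcripts of other neural cells were present as well. Neuron markers summed to 616 to 1110 CPM with sh900 and 477 to 889 CPM with sh902, against 694 to 1976 CPM with shNT, and 4 of the 6 tested were called lower in the fit with the date label. Oligodendrocyte lineage markers summed to 2292 to 3095 CPM with sh900 and 1272 to 2023 CPM with sh902, against 1984 to 2988 CPM with shNT, and 5 of 8 were called lower. Astrocyte markers summed to 355 to 3244 CPM with sh900 and 363 to 2246 CPM with sh902, against 348 to 6023 CPM with shNT, and 2 of 6 were called lower. Microglia, endothelial and fibroblast or mural markers each summed to under 15 CPM in every library, and 2 of the 6 microglia markers were at 0 in all. In bulk RNA, fewer cells of a type and less RNA per cell cannot be told apart. The part of these marker differences in the results was not tested.

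Of the 32 members, 17 were higher (53.1%) and 1 was lower in the hairpin libraries, as the mean of both hairpins against shNT, in edgeR's quasi-likelihood test with a term for the date label and Benjamini-Hochberg adjustment over all genes. The undated libraries formed a level of that term, though their pairing is uncertain. The members were chosen with earlier results of these data known. The background in that fit was 6.08% of all genes called higher and 5.59% called lower. The log2 fold changes of the 17 ran from 0.48 for Ercc5 to 2.84 for Perp, and the median over all 32 members was 0.75, against -0.02 over all genes tested. Of the 14 members not called, 10 had a positive and 4 a negative log2 fold change. With 1 library left out, the lowest count called was 8, without the undated shNT library (1.42% of all genes called). The highest was 20, without the 30 August shNT library (19.9%). In the dated libraries alone the same fit called 1 member, Perp, which was the only gene called in the whole table. Without the term for the date label, edgeR called 0 of 32 members and 0 of 17602 genes (background 0%), and the lowest adjusted p of a member was 0.182, for Perp. At an unadjusted p under 0.05 that fit held 11 members (16% of all genes), 10 of them higher (7.54% of all genes), and DESeq2 without the term called 7 members (4.25% of all genes). The verbs rose and fell are used below for calls in the fit with the date label.

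Among the apoptosis genes 9 of 11 were higher (81.8%, against 6.08% of all genes). Leaving out 1 library brought this to 4 (undated shNT), 5 (undated sh900, 3 September sh902 or 3 September shNT) or 6 (undated sh902). Leaving out any other single library kept 7 to 9. Of these fits, that with 4 called 1.42% of all genes in either direction, and that with 9 called 19.9%. The fits with 5 or 6 called 3.54% to 5.34% of all genes, and those with 7 or 8 called 5.48% to 13.6%. The feedback genes and regulators held 3 higher of 7, the repair genes 2 of 4 and the arrest genes 1 of 5. The metabolism genes held 2 higher and 1 lower of 4. Beside these counts stand 6.08% of all genes called higher and 5.59% called lower. Trp53 itself was not called, and the classes were not tested against each other. Every hairpin library lay above the shNT library of the same label for 16 members (50%), against 12.8% of all genes, and below it for 1 member, Sesn1 (background 12%). The 6 hairpin libraries lay above all 3 shNT libraries for 4 members, Perp, Tnfrsf10b, Phlda3 and Dglucy (12.5%, against 3.37% of all genes).

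**Figure D1:**
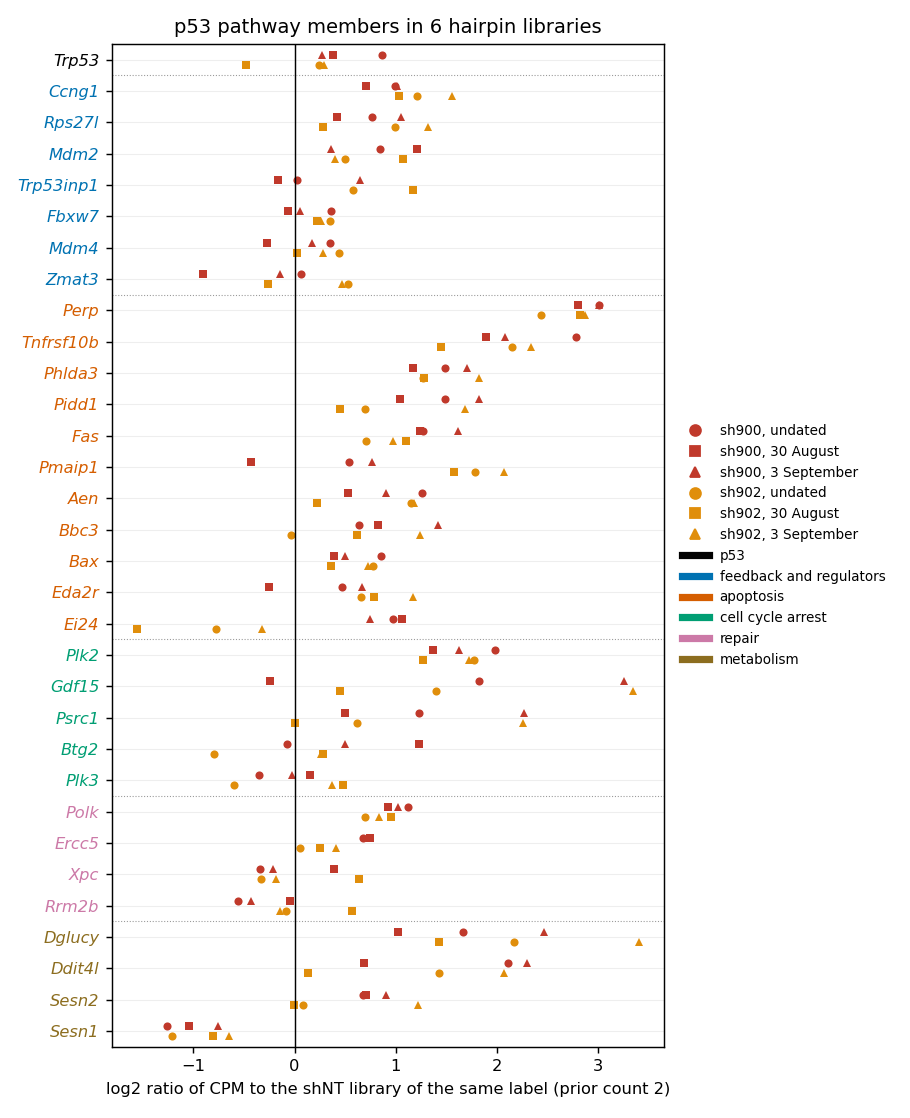
Log2 ratio of each hairpin library to the shNT library of the same date label (x axis, from CPM with a prior count of 2) for the 32 members, grouped by function and coloured by hairpin, with 1 point per library. Points of 16 members, such as Perp (2.44 to 3.01), lie wholly to the right of 0, and those of Sesn1 (-1.26 to -0.65) lie wholly to the left.

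Trp53 (ENSMUSG00000059552, chromosome 11, 69580359 to 69591873), the gene of p53, had 98.6, 121.4 and 53.2 CPM with sh900 and 64.2, 67.3 and 54.0 CPM with sh902, against 54.2, 93.6 and 44.1 CPM with shNT. It was above the control of its label in 5 of 6 hairpin libraries, with sh902 of 30 August below it, and the groups overlapped. Its mean log2 fold change of 0.27 ± 0.17 (SE, n = 3 libraries a group) was not called (edgeR adjusted p = 0.342). The value was 0.51 ± 0.20 for sh900 (edgeR adjusted p = 0.145) and 0.03 ± 0.20 for sh902 (adjusted p = 0.946). Each SE of a log2 fold change, here and below, is that fold change without its sign divided by the square root of its F statistic. It thus comes from the model of all 9 libraries with the date label as a term, and not from the 3 libraries of a group alone.

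Mdm2 (ENSMUSG00000020184, chromosome 10, 117688875 to 117710758) had 153.9, 324.6 and 96.0 CPM with sh900 and 121.4, 295.1 and 98.1 CPM with sh902, against 85.7, 140.2 and 74.5 CPM with shNT. Each hairpin library was above the control of its label, and the 30 August libraries were the highest in all 3 groups, so that the groups overlapped. Mdm2 rose by 0.72 ± 0.16 on the log2 scale (SE, edgeR adjusted p = 0.0256), and was called in 4 of the 9 fits that each left out 1 library. Its relative Mdm4 (ENSMUSG00000054387), which inhibits p53 without a ubiquitin ligase activity of its own, stood at 138.7, 144.9 and 119.1 CPM with sh900 and 147.7, 177.8 and 128.0 CPM with sh902, against 108.8, 174.6 and 105.5 CPM with shNT. The groups overlapped, and Mdm4 was not called (0.16 ± 0.13 on the log2 scale, edgeR adjusted p = 0.432).

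Ccng1 (ENSMUSG00000020326, chromosome 11, 40748552 to 40755311), which encodes cyclin G1 and has the full site shown above, was the regulator with the lowest p. It had 712, 1339 and 533 CPM with sh900 and 826, 1685 and 776 CPM with sh902, against 358, 823 and 264 CPM with shNT. Within each label both hairpin libraries were well above the control, while the 30 August control lay above the undated sh900 library and both 3 September hairpin libraries. Ccng1 rose by 1.08 ± 0.14 (log2, SE, edgeR adjusted p = 0.00581) and was called in 9 of 9 fits with a library left out. Rps27l, a ribosomal protein gene of the S27 family whose reads can be shared with Rps27, had 127.4, 195.4 and 88.9 CPM with sh900 and 149.4, 178.4 and 107.1 CPM with sh902, against 75.1, 146.6 and 42.9 CPM with shNT. It was above the control of its label in 6 of 6 libraries and rose by 0.79 ± 0.17 (log2, SE, edgeR adjusted p = 0.0245), a call kept in 2 of 9 fits with a library left out. Trp53inp1, a stress-induced nuclear protein, had 483, 562 and 503 CPM with sh900 and 712, 1417 and 722 CPM with sh902, against 476, 629.7 and 321 CPM with shNT. The sh900 libraries lay near the controls at 2 of 3 labels and the sh902 libraries above them at all 3. It was called with sh902 (0.98 ± 0.21, log2, SE, edgeR adjusted p = 0.0265) and not with sh900 (0.18 ± 0.21, adjusted p = 0.623), and the difference between the hairpins was not called (-0.80 ± 0.21, adjusted p = 0.0707). Fbxw7, a substrate receptor of an SCF ubiquitin ligase (0.20 ± 0.11, adjusted p = 0.277), and Zmat3, an RNA-binding zinc finger protein (-0.06 ± 0.17, adjusted p = 0.867), were not called for the mean of both hairpins.

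The largest fold change of any member was that of Perp (ENSMUSG00000019851, chromosome 10, 18845020 to 18857073), a tetraspan membrane protein of desmosomes and an effector of p53-dependent apoptosis. Perp had 56.6, 68.9 and 29.8 CPM with sh900 and 38.1, 69.6 and 27.0 CPM with sh902, against 6.98, 9.81 and 3.62 CPM with shNT. The lowest hairpin library was above the highest control. It rose by 2.84 ± 0.15 on the log2 scale (SE, edgeR adjusted p = 0.00104). Tnfrsf10b (ENSMUSG00000022074, chromosome 14, 69767472 to 69784411), the death receptor for TRAIL in the mouse, had 59.4, 74.0 and 24.1 CPM with sh900 and 38.4, 54.5 and 28.9 CPM with sh902, against 8.59, 19.96 and 5.65 CPM with shNT. Its groups were also apart, though the 3 September sh900 library was close to the 30 August control. Tnfrsf10b rose by 2.12 ± 0.22 (log2, SE, edgeR adjusted p = 0.00488). Phlda3 (ENSMUSG00000041801, chromosome 1, 135766119 to 135769136), a pleckstrin homology protein that restrains Akt, had 185.6, 259.3 and 122.1 CPM with sh900 and 160.3, 280.0 and 132.4 CPM with sh902, against 66.4, 115.4 and 37.4 CPM with shNT. The groups were apart by a narrow margin, and the increase was 1.45 ± 0.14 (log2, SE, edgeR adjusted p = 0.00484).

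Fas (ENSMUSG00000024778, chromosome 19), the receptor for the Fas ligand, had 39.9, 57.6 and 35.1 CPM with sh900 and 27.1, 52.4 and 22.4 CPM with sh902, against 16.6, 24.3 and 11.4 CPM with shNT. Only the 3 September sh902 library lay below the highest control, and Fas rose by 1.16 ± 0.14 (log2, SE, edgeR adjusted p = 0.00519). Perp, Tnfrsf10b, Phlda3 and Fas were called in all 9 fits with a library left out. The other called apoptosis genes had smaller or less stable increases. Pidd1, the scaffold of the complex that activates caspase-2, rose by 1.18 ± 0.21 (edgeR adjusted p = 0.0132, 8 of 9 fits). Aen, an apoptosis-enhancing nuclease, rose by 0.86 ± 0.18 (adjusted p = 0.0235, 3 of 9 fits). Bbc3, which encodes the BH3-only protein Puma, rose by 0.77 ± 0.20 (adjusted p = 0.0433, 1 of 9 fits), and its undated sh902 library was not above the control. Bax, the pore-forming protein of the outer mitochondrial membrane, rose by 0.60 ± 0.12 (adjusted p = 0.0225, 3 of 9 fits) and shares 192 exon bases with Gm45808 on the same strand. Eda2r, a receptor of the tumour necrosis factor family, was not called for the mean (0.59 ± 0.17, adjusted p = 0.0649) and was called with sh902 (0.87 ± 0.20, adjusted p = 0.0316).

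**Figure D2:**
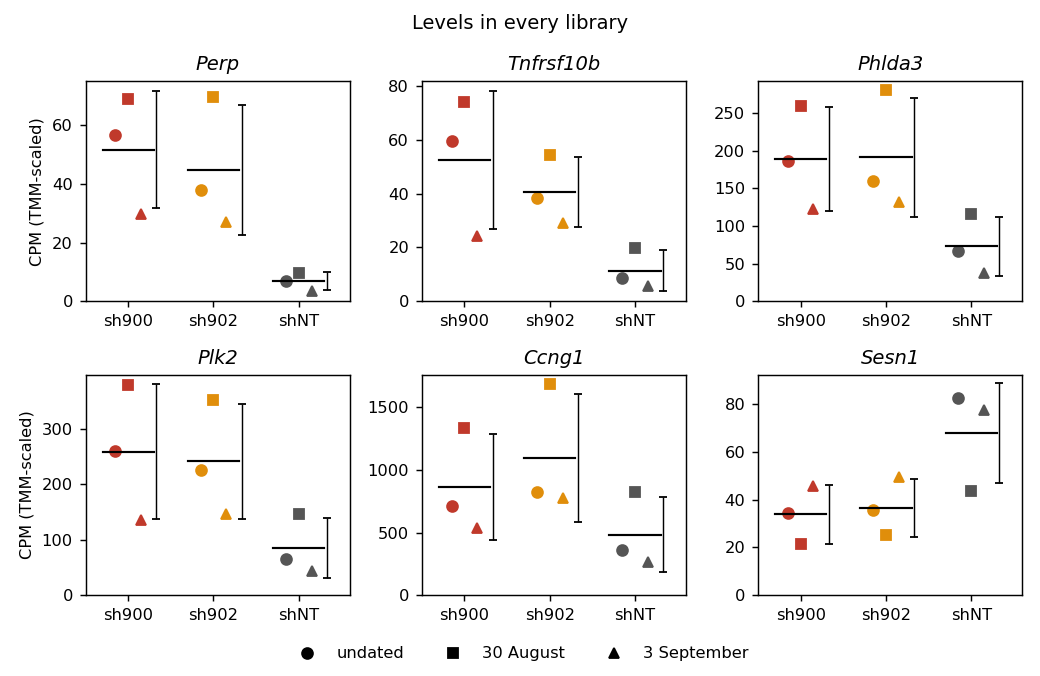
CPM of 6 members in every library (y axes, linear from 0) for sh900, sh902 and shNT. Markers give the date label, horizontal lines the mean and vertical bars the SD of 3 libraries. For Perp, Tnfrsf10b and Phlda3 every hairpin point lies above every shNT point, while for Plk2 and Ccng1 the 30 August control lies above the lowest hairpin libraries, and Sesn1 runs the other way.

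Pmaip1 and Ei24 were the 2 members called between the hairpins, a share of the members near the background of 4.22% of all genes. Pmaip1 (ENSMUSG00000024521), which encodes the BH3-only protein Noxa, had 14.9, 13.3 and 11.9 CPM with sh900, 35.4, 53.6 and 29.6 CPM with sh902 and 10.2, 17.9 and 6.98 CPM with shNT. All sh902 libraries were above every other library, whereas the sh900 libraries lay within the range of the controls. The log2 fold change against shNT was 0.30 ± 0.23 with sh900 (SE, edgeR adjusted p = 0.441) and 1.80 ± 0.23 with sh902 (adjusted p = 0.00779). The difference of sh900 minus sh902 was -1.50 ± 0.23 (SE, edgeR adjusted p = 0.0235), so the mean of both hairpins, 1.05 ± 0.21 (adjusted p = 0.0194), describes neither. Ei24 (ENSMUSG00000062762, chromosome 9, 36779159 to 36797393), a membrane protein of the endoplasmic reticulum, had 331, 496 and 240.6 CPM with sh900, 98.9, 80.6 and 115.2 CPM with sh902 and 168.9, 237.1 and 143.6 CPM with shNT. Every sh900 library was above, and every sh902 library below, every control. Its log2 fold change was 0.94 ± 0.27 with sh900 (SE, edgeR adjusted p = 0.0664) and -0.84 ± 0.27 with sh902 (adjusted p = 0.0859), neither of which was called. The difference of 1.78 ± 0.27 was called (adjusted p = 0.0242), and the mean of both was 0.05 ± 0.23 (adjusted p = 0.915). With the date label and 1 library left out, the difference of sh900 minus sh902 ran from -1.69 to -1.22 for Pmaip1 and from 1.41 to 2.11 for Ei24. It was not called for either gene without the undated or the 30 August library of sh900 or of sh902. Each of those fits called 0% of all genes between the hairpins. Without the 3 September sh902 library (0.657% of all genes called) it was not called for Pmaip1. Where it was not called, the edgeR adjusted p ran from 0.0708 to 0.171. Neither gene was called in the dated libraries alone, where 0% of all genes were called between the hairpins. Ei24 shares 324 exon bases with the antisense gene Gm26787, and the counting is not stated to use strand.

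**Figure D3:**
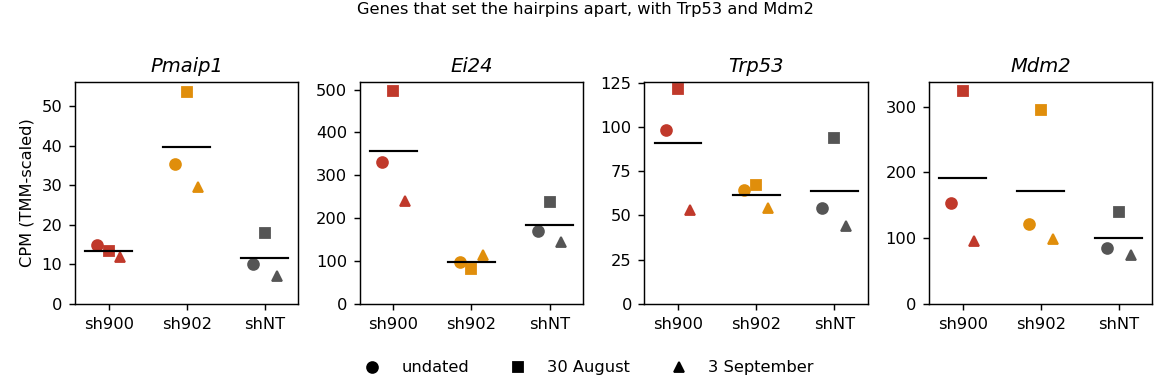
CPM in every library (y axes, linear from 0) for Pmaip1, Ei24, Trp53 and Mdm2, with sh900, sh902 and shNT from left to right, markers for the date label and lines for the mean of 3 libraries. Pmaip1 is high with sh902 alone (29.6 to 53.6 CPM), Ei24 is above the controls with sh900 and below them with sh902, and Trp53 and Mdm2 overlap between groups.

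Among the genes of cell cycle arrest Plk2 was called and the other 4 were not. Plk2 (ENSMUSG00000021701, chromosome 13, 110395046 to 110400844), a polo-like kinase, had 259.7, 378.5 and 135.4 CPM with sh900 and 225.5, 351.3 and 145.5 CPM with sh902, against 66.0, 146.1 and 43.9 CPM with shNT. Both 3 September hairpin libraries were just below the 30 August control, and all 6 were far above the control of their label. Plk2 rose by 1.62 ± 0.14 (log2, SE, edgeR adjusted p = 0.00338), a call made in 9 of 9 fits with a library left out. Psrc1, a microtubule-associated protein, had 208.9, 217.1 and 142.0 CPM with sh900 and 136.0, 154.0 and 141.5 CPM with sh902, against 88.9, 153.3 and 29.5 CPM with shNT. Its distance from the control was large at 3 September and small at 30 August, where the sh902 library and the control were at nearly the same level, and the mean of 1.06 ± 0.37 was not called (edgeR adjusted p = 0.113). Btg2, an antiproliferative gene, had 400.3, 252.1 and 448.8 CPM with sh900 and 241.9, 130.9 and 379.7 CPM with sh902, against 421, 107.8 and 317.5 CPM with shNT. It was lowest at 30 August in all 3 groups, the opposite of most members, and its log2 fold change was 0.21 ± 0.23 (adjusted p = 0.587). Gdf15, a secreted factor of the TGF-beta superfamily, was barely detected, with 110, 26 and 37 counts with sh900 and 86, 40 and 35 counts with sh902, against 26, 32 and 2 counts with shNT. Its log2 fold change of 1.48 ± 0.59 (adjusted p = 0.143) was not called, and the control of 3 September held 2 counts. Plk3, another polo-like kinase, did not pass the test (log2 fold change -0.00 ± 0.21, adjusted p = 0.998).

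In the repair group Polk and Ercc5 rose and Xpc and Rrm2b did not pass the test. Polk (ENSMUSG00000021668), the translesion DNA polymerase kappa, had 53.8, 69.4 and 39.4 CPM with sh900 and 40.3, 70.9 and 34.6 CPM with sh902, against 24.8, 36.7 and 19.3 CPM with shNT. It was above the control of its label in 6 of 6 libraries by similar amounts and rose by 0.93 ± 0.12 (log2, SE, edgeR adjusted p = 0.00622, 9 of 9 fits with a library left out). Ercc5, which encodes the nucleotide excision repair endonuclease XPG, had 108.2, 136.4 and 85.4 CPM with sh900 and 70.3, 96.7 and 68.2 CPM with sh902, against 67.6, 81.4 and 51.4 CPM with shNT. The sh900 libraries stood further above the controls than the sh902 libraries at every label. The mean was 0.48 ± 0.11 (edgeR adjusted p = 0.0286, 2 of 9 fits), and the difference between the hairpins, 0.48 ± 0.12, was not called (adjusted p = 0.0676). Xpc, the damage sensor of nucleotide excision repair, had 30.3, 30.9 and 36.6 CPM with sh900 and 30.5, 36.7 and 37.3 CPM with sh902, against 38.4, 23.6 and 42.5 CPM with shNT (log2 fold change -0.03 ± 0.17, adjusted p = 0.947). Rrm2b, the p53-inducible subunit of ribonucleotide reductase, had 22.1, 25.0 and 31.7 CPM with sh900 and 30.8, 38.1 and 38.4 CPM with sh902, against 32.7, 25.7 and 42.6 CPM with shNT (-0.12 ± 0.15, adjusted p = 0.620). For both genes the control range enclosed most hairpin libraries.

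The metabolism group went in both directions. Sesn1 (ENSMUSG00000038332, chromosome 10, 41809935 to 41908424) encodes sestrin 1, which restrains the growth kinase mTORC1, and was the only member that fell. It had 34.4, 21.3 and 46.0 CPM with sh900 and 35.6, 25.1 and 49.4 CPM with sh902, against 82.5, 43.8 and 77.6 CPM with shNT. Every hairpin library was below the control of its label, and the groups overlapped only through the low 30 August control. Sesn1 fell by 0.96 on the log2 scale (SE 0.12, edgeR adjusted p = 0.00631), and was called in 9 of 9 fits with a library left out. Its relative Sesn2 had 156.1, 264.5 and 90.2 CPM with sh900 and 104.0, 162.0 and 112.6 CPM with sh902, against 97.9, 162.1 and 48.3 CPM with shNT. The log2 fold change of Sesn2 was positive, 0.60 ± 0.21, and not called (adjusted p = 0.106). Ddit4l, another inhibitor of mTORC1 signalling, had 74.6, 19.2 and 60.1 CPM with sh900 and 46.6, 13.1 and 51.5 CPM with sh902, against 17.3, 11.9 and 12.2 CPM with shNT. Its 30 August hairpin libraries were close to the controls and the other 4 far above them, and it rose by 1.41 ± 0.33 (log2, SE, edgeR adjusted p = 0.0393, 2 of 9 fits). Dglucy (ENSMUSG00000021185, chromosome 12), the D-glutamate cyclase of mitochondria, had 76.2, 101.8 and 52.0 CPM with sh900 and 108.2, 134.4 and 99.95 CPM with sh902, against 24.0, 49.95 and 9.39 CPM with shNT. The groups were apart, with the 3 September sh900 library just above the highest control, and Dglucy rose by 1.97 ± 0.32 (log2, SE, edgeR adjusted p = 0.0128, 8 of 9 fits).

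The calls differed in how far they rested on single libraries. Ccng1, Fas, Tnfrsf10b, Perp, Phlda3, Plk2, Polk and Sesn1 were called in all 9 fits with the date label that left out 1 library. Without the undated shNT library, 10 of the 18 calls were lost, namely Mdm2, Rps27l, Bbc3, Bax, Pmaip1, Pidd1, Aen, Ercc5, Ddit4l and Dglucy, and 1.42% of all genes were called. The first 5 of these with Aen, Ercc5 and Ddit4l were lost without the undated sh900 library and again without the 3 September sh902 library. The same set apart from Pmaip1 was lost without the 30 August sh900 library, and apart from Bbc3 without the undated sh902 library. Leaving out the 3 September shNT library lost Rps27l, Bbc3, Bax, Pmaip1, Aen, Ercc5 and Ddit4l, and leaving out the 3 September sh900 library lost Rps27l, Bbc3, Ercc5 and Ddit4l. Bbc3 alone was lost without the 30 August sh902 or shNT library. The log2 fold changes of these 10 stayed positive in all 9 fits, from 0.42 for Ercc5 to 2.40 for Dglucy. Without the 30 August shNT library Eda2r, Psrc1 and Gdf15 were called in addition, at up to 0.75, 1.55 and 2.37 over the 9 fits, and Eda2r was also called without the 30 August sh900 library.

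Each hairpin alone gave 15 members higher and Sesn1 lower in the fit with the date label. With sh900 the background was 5.39% of all genes called higher and 3.45% lower, and with sh902 it was 5.12% and 5.39%. Both contrasts use the same 3 shNT libraries and are therefore not independent. The members called higher with sh900 and with sh902 were Ccng1, Bax, Fas, Tnfrsf10b, Perp, Pidd1, Aen, Phlda3, Plk2, Polk and Dglucy, 11 in all (34.4%, against 2.5% of all genes), and Sesn1 was lower with both (background 1.51%). Mdm2, Bbc3, Ercc5 and Ddit4l passed the threshold with sh900 and not with sh902, and Trp53inp1, Rps27l, Pmaip1 and Eda2r passed it with sh902 and not with sh900. Of these 8, the difference itself was called for Pmaip1 alone. Between the hairpins, the log2 differences of the 30 members not called lay between -0.80 and 0.64.

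**Figure D4:**
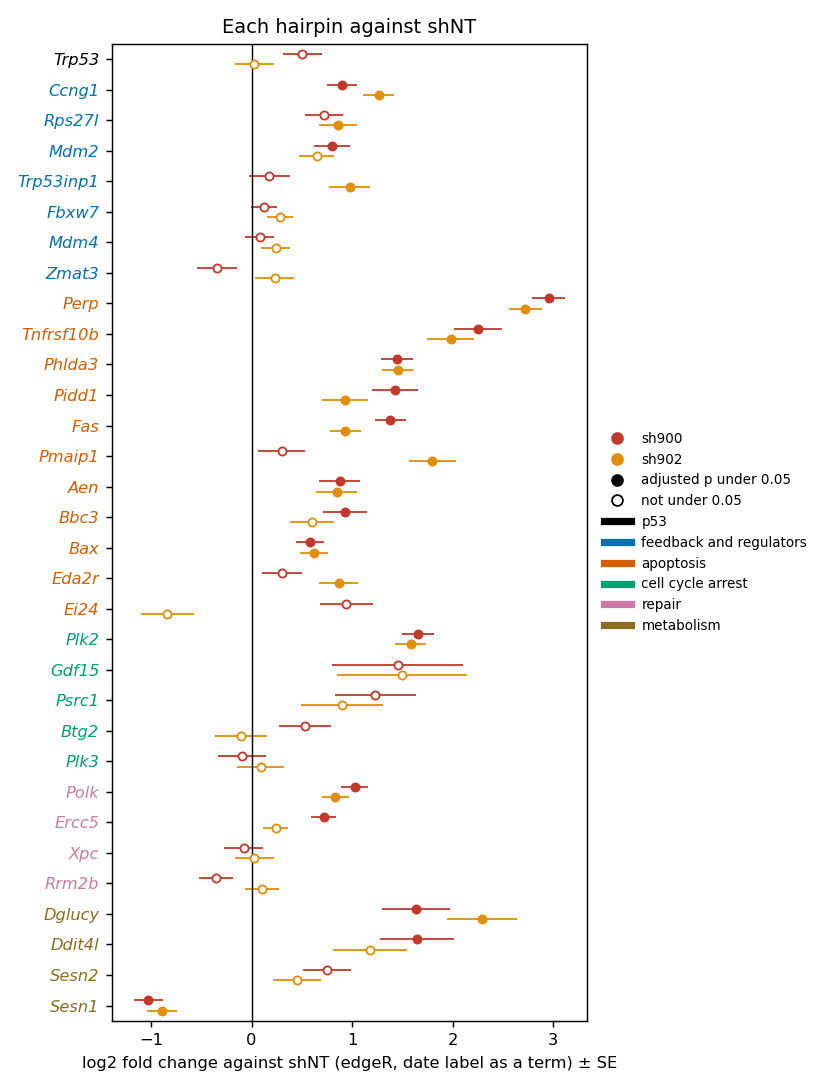
Log2 fold change of sh900 and of sh902 against shNT (x axis, edgeR with the date label as a term) with its SE as a bar, for the 32 members. Filled points have an adjusted p under 0.05. The points of sh900 and sh902 lie furthest apart for Ei24 (difference 1.78) and Pmaip1 (difference -1.50).

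The members varied with the date label as well as with the hairpin. In the shNT libraries 25 of 32 members (78.1%) were highest at 30 August, against 41% of all genes, and 27 (84.4%) were lowest at 3 September, against 35.2%. Both held for 25 members (78.1%, against 27% of all genes). Without Gdf15, the highest control was between 1.32 and 5.32 times the lowest, with a median over all members of 2.26. The median ratio of the 30 August to the 3 September library was 1.62 with sh900 and 1.43 with sh902, against 2.13 with shNT. The spread among the controls was thus larger than the difference between hairpin and control libraries for many members, and the calls above were obtained with the label as a term.

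Markers of cycling cells moved with the label in the controls too. Mki67 had 413, 194.0 and 326 CPM with sh900 and 523, 299 and 455 CPM with sh902, against 291, 869 and 60.1 CPM with shNT. The 8 cycling markers summed to 1166, 597 and 898 CPM with sh900 and 1425, 785 and 1286 CPM with sh902. Their sums with shNT were 863, 2494 and 166 CPM. In the fit with the date label 0 of these 8 markers were called (background 11.7% of all genes). Against the control of the same label, their median log2 ratio was 0.48, -2.05 and 2.49 with sh900 and 0.75, -1.68 and 3.09 with sh902. The corresponding median of the 32 members was 0.85, 0.60 and 0.83 with sh900 and 0.64, 0.47 and 1.17 with sh902. The median of the members was above 0 at every label and lowest at 30 August with both hairpins. The median of the cycling markers was also lowest at 30 August, where it was below 0, and was above 0 at the other labels. The part of cycling in the members' values was not tested.

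**Figure D5:**
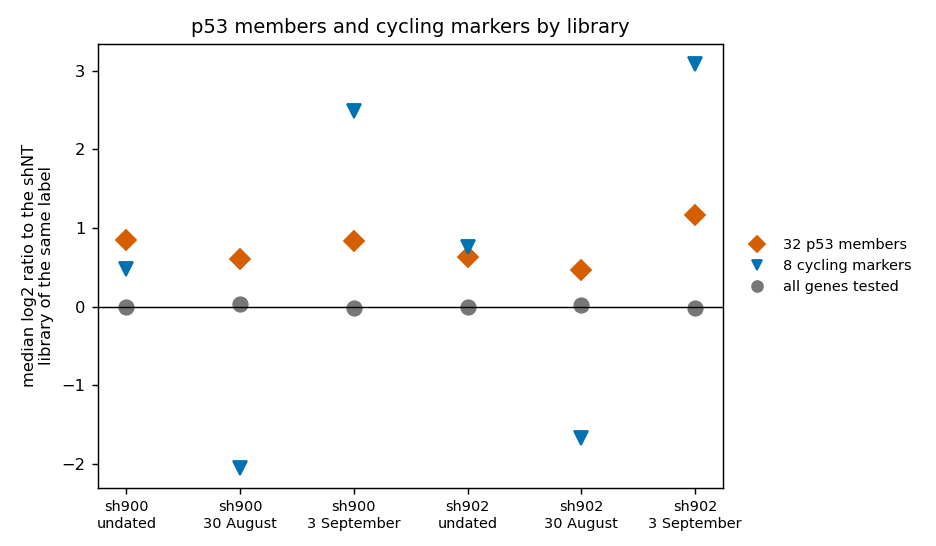
Median log2 ratio of each hairpin library to the shNT library of its label (y axis) for the 32 p53 members, the 8 cycling markers and all genes tested. The members stay between 0.47 and 1.17 and all genes between -0.01 and 0.03, while the cycling markers swing between -2.05 and 3.09.

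Another 37 known p53 targets outside the members were listed with earlier results of these data known, so their shares add no separate support. Of the 37, 36 were tested. Of these, 8 rose for the mean of both hairpins in the fit with the date label (22.2%, against 6.08% of all genes). For that mean 0 fell (against 5.59%), while 3 had an edgeR unadjusted p under 0.05 and a negative fold change. The median log2 fold change was 0.49. Cdkn1a, the cyclin-dependent kinase inhibitor p21, had 659, 938 and 344 CPM with sh900 and 592, 942 and 501 CPM with sh902, against 219.9, 418 and 90.3 CPM with shNT, and rose by 1.61 ± 0.22 (log2, SE, edgeR adjusted p = 0.00731). Each hairpin library was above the control of its label, and the 3 September sh900 library was below the 30 August control. Epha2, an ephrin receptor, had the largest increase of the list, 3.27 ± 0.29 (adjusted p = 0.00338), with 18.2, 40.1 and 4.84 CPM with sh900 and 19.95, 48.2 and 4.81 CPM with sh902, against 1.24, 7.35 and 0.382 CPM with shNT. Lif, the cytokine leukaemia inhibitory factor, rose by 2.25 ± 0.35 (adjusted p = 0.00999). Ephx1, the microsomal epoxide hydrolase, rose by 1.40 ± 0.18 (adjusted p = 0.00631), Ak1, an adenylate kinase, by 1.17 ± 0.22 (adjusted p = 0.0167), and Ptpn14, a tyrosine phosphatase, by 1.03 ± 0.20 (adjusted p = 0.0181). These 6 genes were above the control of the same label in 6 of 6 hairpin libraries. The other 2 called were Siva1 and Susd6. Between the hairpins 2 of the list were called (background 4.22% of all genes), both higher with sh900. They were Susd6 (0.84 ± 0.17, edgeR adjusted p = 0.0403) and Trp53cor1 (1.52 ± 0.25, adjusted p = 0.0256), which was not called for the mean. Susd6 was called with sh900 (adjusted p = 0.0142) and not with sh902 (adjusted p = 0.445). Against shNT, Casp6 was called lower with sh902 (-0.72 ± 0.18, adjusted p = 0.0445, background 5.39%).

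Of 28 activators and cofactors of p53, 3 rose (10.7%) and 2 fell (7.14%), near the background of 6.08% of all genes higher and 5.59% lower, and the median log2 fold change was 0.05. Hipk2, a kinase that phosphorylates p53, had 124.1, 118.0 and 128.3 CPM with sh900 and 118.4, 137.7 and 120.2 CPM with sh902, against 178.6, 214.8 and 212.6 CPM with shNT. All hairpin libraries were below all controls, and Hipk2 fell by 0.70 on the log2 scale (SE 0.11, edgeR adjusted p = 0.00987). Trp53bp2, which encodes the p53-binding protein ASPP2, fell by 0.58 (SE 0.12, adjusted p = 0.0235), with the 30 August sh900 library only just below the 30 August control. The genes that rose were Pml, of nuclear bodies (0.88 ± 0.21, adjusted p = 0.0360), Ppp1r13l, the inhibitory relative iASPP (0.76 ± 0.20, adjusted p = 0.0434), and Kmt5a, a histone H4 methyltransferase that in human cells also methylates p53 (0.77 ± 0.20, adjusted p = 0.0472). The kinases of the damage signal upstream of p53 in that list, Atm, Atr, Chek1, Chek2 and Prkdc, were not called (singled out after their values were seen). Against the same-label control, the log2 ratio of Chek1 was 0.83, -1.80 and 1.85 with sh900 and 1.22, -1.49 and 2.37 with sh902, and that of Chek2 ran from -1.85 to 1.67, both below 0 at 30 August and above 0 at the other labels. The ratios of Atm, Atr and Prkdc lay between -0.64 and 0.56.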

How the data were processed

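The authors deposited estimated counts per gene for 9 libraries, which were already whole numbers. Tools named in the submitters' processing notes are RSEM, STAR 2.5.0a, Trimmomatic 0.36, cutadapt and FastQC, with the build GRCm38. Step order, annotation release and RSEM settings are not given there. RSEM divides reads that fit several genes, so paralogs and overlapping genes are uncertain. Symbols and coordinates came from GENCODE M21 (GRCm38), which matched 54079 identifiers and left 153 unmatched.

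Genes were tested in R 4.3.3 with edgeR 4.0.16 (quasi-likelihood F test, robust dispersions, TMM factors, default filter by group, 17602 genes with 99.9% of counts), with all 9 libraries in 1 model and calls at a Benjamini-Hochberg adjusted p under 0.05. The main design had no term for the date label, and the label as an additive replicate block was an alternative. Deviations from group means correlated at 0.402 to 0.627 among 30 August libraries, 0.456 to 0.645 among 3 September libraries, 0.0799 to 0.399 among undated ones and -0.661 to 0.302 across labels. Equal dates in the titles were on this basis treated as pairing the dated libraries. The undated libraries were also treated as a block and as same-label pairs, though their pairing is uncertain. The undated shNT library correlated at 0.145 with undated sh900 and at 0.0799 with undated sh902. For the 30 August shNT library these values were 0.179 and 0.163, and for that of 3 September -0.308 and -0.246. The main design called no gene, so named genes were taken from the blocked fit. They were Trp53, Mdm2, Mdm4, up to 4 members of each class with the smallest p, members called lower or between hairpins, and up to 6 called genes of each further list. Members, lists and tests were chosen with earlier results of these data known. No 2 libraries of a group agreed within counting noise (lowest chi-square per degree of freedom 37.95). Scripts were tested on simulated counts. Alternatives were DESeq2 1.42.0, RLE factors, library size alone, other low-count filters, omission of the undated libraries and omission of single libraries.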

Additional observations from a re-analysis of the deposited data

Results flagged for a closer look

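Among the members whose values in every library are given above, Btg2 and Xpc lay on opposite sides of the control at different date labels with both hairpins. Of the other members, Zmat3 (log2 ratios from -0.90 to 0.53) and Plk3 (from -0.59 to 0.48) did so too. For Btg2 the log2 ratio to the shNT library of the same label was -0.0728 and -0.799 in the undated sh900 and sh902 libraries, against 1.23 and 0.28 at 30 August and 0.499 and 0.258 at 3 September. For Xpc the ratio was 0.387 with sh900 and 0.639 with sh902 at 30 August, against -0.343 and -0.335 in the undated libraries and -0.214 and -0.185 at 3 September. There was 1 library per hairpin and label, and the difference between labels was not tested.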

How the results depend on the processing

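Counts of members called are given for the mean of both hairpins, sh900, sh902 and sh900 minus sh902, in that order. Without the replicate block edgeR called 0 of each, also with RLE factors, library size alone, 1 CPM in 3 libraries or the dated libraries alone. With no low-count filter it called 0, 0, 0 and 1 (0.0209%, 0.152%, 0.0916% and 0.364% of all genes). DESeq2 called 7, 4, 4 and 2 without the block (4.25% to 5.78% of all genes) and 22, 20, 19 and 4 with it (16.9%, 14.7%, 16% and 9.98%). With the block edgeR called 18, 16, 16 and 2 (11.7%, 8.85%, 10.5% and 4.22% of all genes). RLE factors gave the same counts (11.6%, 8.85%, 10.5% and 4.37%). Library size alone gave 17, 15, 17 and 2 (11.3%, 8.19%, 10.4% and 3.97%). No low-count filter gave 18, 16, 17 and 3 (7.11%, 5.78%, 6.33% and 4.01%). The dated libraries alone gave 1, 1, 0 and 0 (0.00566%, 0.0226%, 0% and 0%). With 1 library left out, the ranges without the block were 0 to 0, 0 to 1, 0 to 0 and 0 to 1 (at most 0.522% of all genes). With the block they were 8 to 20, 5 to 20, 3 to 20 and 0 to 5. The shares of all genes called with the block ran from 1.42% to 19.9%, 0.482% to 15.9%, 0.247% to 20.6% and 0% to 10.9%. The blocked count for the mean was 8 without the undated shNT library (1.42% of all genes called). It was 20 without that of 30 August (19.9%) and 11 without that of 3 September (5.34%). In the order undated, 30 August, 3 September, it was 10, 12 and 14 without the sh900 libraries (3.59%, 5.48% and 7.89%). Without the sh902 libraries it was 11, 17 and 10 (3.54%, 13.6% and 4.4%). Of the 18 members called with the block, 8 held in 9 of 9 such fits, 2 in 5 to 8, and 8 in fewer than 5.

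The difference in Phf2 ran from -1.39 to -1.21 with 1 library left out. Members whose mean log2 fold change took the other sign were not called for the mean under that alternative. Xpc was at 0.022 with no low-count filter, 0.039 with the block and no filter, and 0.089 and 0.13 in the dated libraries alone without and with the block; Ei24 was at -0.017 in the dated libraries alone. With 1 library left out, in either design, values ran from -0.28 to 0.57 for Btg2, -0.12 to 0.27 for Ei24, -0.30 to 0.067 for Rrm2b and -0.26 to 0.14 for Xpc, and with the block from -0.23 to 0.24 for Zmat3 and -0.15 to 0.25 for Plk3. The cause was not tested. Gdf15 rested on 2 to 110 counts, so its values carry more counting error than those of the other members.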
